A study of Mus musculus with 62 samples.

Results

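The serotonergic genes Tph2, Slc6a4 and Fev and the cholinergic genes Chat, Slc5a7 and Slc18a3 were followed through 62 mouse RNA libraries in 15 groups. These 6 genes, picked by symbol but with earlier results of these data known, were found in each of the deposited tables, which list 23038 genes. The study asks what loss of Nova1, a neuronal RNA-binding protein, does to gene expression. Nova1 conditional knockout mice (cKO; deletion in inhibitory neurons, per the series' design text) were set beside mice labelled cHet at postnatal day 21 (P21) in periaqueductal gray, hypothalamus, caudate putamen and substantia nigra (4 libraries per genotype) and pituitary (3 per genotype). At P0, cKO and cHet whole brains were used for translating ribosome affinity purification (TRAP), which recovers ribosome-bound mRNA, here of inhibitory neurons (6 per genotype). Neurons grown from ventral mesencephalon and diencephalon taken at e13.5 received a lentivirus on day 7 in vitro and gave RNA on day 14 (4 libraries per group). The virus carried GFP, Cre and Impact (KO + Impact), GFP and Cre (KO), or GFP alone (WT). Impact is named in the design text as a Nova1 target. The strain background of all groups is given as BL6. The driver of Cre in the mice, the alleles behind cHet and the number of mice per library are not named in the labels, so p-values measure the spread between libraries.

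Serotonergic neurons sit in the raphe nuclei along the midline of the brainstem, and the dorsal raphe lies in the ventral periaqueductal gray. Their axons reach most of the forebrain, while the mRNAs named here are found chiefly in the cell bodies. Cholinergic neurons include interneurons of the caudate putamen, projection neurons of the basal forebrain and of the pontine tegmentum, and motor neurons of the brainstem and spinal cord. Tph2 encodes the enzyme that sets the rate of serotonin synthesis in neurons, Slc6a4 the transporter that takes serotonin back up, and Fev (also called Pet-1) an ETS-family transcription factor of serotonergic neurons. Chat encodes the enzyme that makes acetylcholine, Slc5a7 the high-affinity transporter that brings choline into the terminal, and Slc18a3 the vesicular transporter that loads acetylcholine.

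Promoters are shown because Fev is known to act on serotonergic promoters and because Chat and Slc18a3 share a locus. Each sequence is the window from 250 bases before to 50 bases after the RefSeq gene start on GRCm38.p6. In the serotonergic genes the capitals mark GGAA or its reverse complement TTCC, the core that ETS factors such as Fev bind. The Tph2 window (Entrez 216343) is chr10:115184973-115185272 on the minus strand, the Slc6a4 window (Entrez 15567) is chr11:76998347-76998646 on the plus strand, and the Fev window (Entrez 260298) is chr1:74885359-74885658 on the minus strand.
Tph2: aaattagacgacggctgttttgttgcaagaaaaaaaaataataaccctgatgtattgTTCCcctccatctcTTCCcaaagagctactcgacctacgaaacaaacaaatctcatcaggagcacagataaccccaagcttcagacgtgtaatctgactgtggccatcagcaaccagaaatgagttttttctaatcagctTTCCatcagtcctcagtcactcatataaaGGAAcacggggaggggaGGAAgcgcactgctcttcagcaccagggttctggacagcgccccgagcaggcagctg
Slc6a4: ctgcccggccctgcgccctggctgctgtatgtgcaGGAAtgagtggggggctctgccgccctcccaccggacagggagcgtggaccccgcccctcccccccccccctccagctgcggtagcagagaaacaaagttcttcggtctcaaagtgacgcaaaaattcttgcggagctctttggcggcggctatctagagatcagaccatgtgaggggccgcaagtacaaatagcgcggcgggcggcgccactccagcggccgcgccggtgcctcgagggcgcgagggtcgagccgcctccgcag
Fev: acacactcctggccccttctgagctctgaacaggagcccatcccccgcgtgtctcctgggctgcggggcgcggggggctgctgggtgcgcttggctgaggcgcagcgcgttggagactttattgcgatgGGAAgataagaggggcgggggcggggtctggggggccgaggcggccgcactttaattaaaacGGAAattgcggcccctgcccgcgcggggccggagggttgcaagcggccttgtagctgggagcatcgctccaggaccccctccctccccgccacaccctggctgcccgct

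The Tph2 window held 5 matches to GGAA or TTCC, the Fev window 2 and the Slc6a4 window 1. The core is short, and 96% of 32851 promoter windows held at least 1 match, with a median of 3. Chat held 8 matches and Slc5a7 and Slc18a3 held 4 each. A match is a string of letters in this window and was not measured as a site.

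In the cholinergic windows the capitals mark TAAT or ATTA, the core of homeodomain factors such as Isl1 and Lhx8, which act in cholinergic neurons. The Chat window (Entrez 12647) is chr14:32465860-32466159 and the Slc18a3 window (Entrez 20508) is chr14:32464801-32465100, both on the minus strand and 759 bases apart.
Chat: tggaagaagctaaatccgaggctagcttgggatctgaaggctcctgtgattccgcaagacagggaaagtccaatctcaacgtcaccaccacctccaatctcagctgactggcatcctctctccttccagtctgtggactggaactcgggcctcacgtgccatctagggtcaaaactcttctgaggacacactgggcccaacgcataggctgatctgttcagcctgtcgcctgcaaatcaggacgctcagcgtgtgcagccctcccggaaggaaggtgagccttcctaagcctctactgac
Slc18a3: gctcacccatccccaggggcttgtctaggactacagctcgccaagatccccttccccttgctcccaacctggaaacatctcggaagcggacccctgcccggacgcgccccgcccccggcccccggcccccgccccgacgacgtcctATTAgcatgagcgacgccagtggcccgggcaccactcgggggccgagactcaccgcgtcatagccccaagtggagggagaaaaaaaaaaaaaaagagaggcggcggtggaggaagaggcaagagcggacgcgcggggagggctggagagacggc

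Chat held 0 matches to TAAT or ATTA in these 300 bases and Slc18a3 held 1, while 58% of promoter windows held at least 1. In GENCODE M21 on GRCm38, Slc18a3 (chr14:32462438-32464850) lies on the same strand inside intron 1 of the 4 Chat transcripts that begin at the Chat gene start (Chat, chr14:32408203-32465989). The gene starts are 1139 bases apart and no exon base is shared. Intronic Chat RNA over this interval and Slc18a3 mRNA cannot be told apart in gene counts, which touches every Slc18a3 value below. Tph2 (chr10:115078641-115185022, minus strand), Slc6a4 (chr11:76998603-77032340, plus strand), Fev (chr1:74881509-74885419, minus strand) and Slc5a7 (chr17:54273590-54299034, minus strand; Entrez 63993) share no exon base with another gene of the annotation on either strand.

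Libraries held 2.24 to 3.10 megatags (units of 1000000 tags) in pituitary and 7.38 to 29.5 megatags elsewhere. Between 0.472 and 40.8% of a library fell on Rn45s, which is ribosomal RNA. Levels below are tag counts per 1000000 tags (CPM) of the library size scaled within each tissue, as mean ± SD, so levels from different tissues come from separate scalings. The labels of caudate putamen cKO 1 conflict. It is titled as periaqueductal gray but tagged as caudate putamen, and it was placed by the tag. Its Tph2 level was 1.49 CPM, beside at least 42.0 CPM in each periaqueductal gray library, and its Chat level was 37.6 CPM, where the cKO libraries 2 to 4 of that region had 31.2 to 38.9 CPM. Region markers were read as sums. Striatal markers were at 5000 to 5878 CPM in caudate putamen and at most 341 CPM elsewhere, and pituitary markers at 65487 to 95633 CPM in pituitary and at most 13.1 CPM elsewhere. Hypothalamic markers were at 313 to 474 CPM in hypothalamus and at most 5.15 CPM in the other brain regions, and at 6219 to 15037 CPM in pituitary, where Pomc, a gene of that list, is also a known hormone gene. In TRAP, GABAergic markers summed to 1118 to 1468 CPM and glutamatergic markers to 27.4 to 45.1 CPM. Nova1 itself passed the test as lower in cKO hypothalamus, caudate putamen, substantia nigra and TRAP and in both KO groups of neurons. In periaqueductal gray it was at 166, 170, 184 and 109 CPM in the 4 cKO libraries, against 182, 194, 214 and 183 CPM in the 4 cHet libraries (log2 fold change -0.30, adjusted p = 0.114), so the genotype contrast there rests on a small difference in Nova1 mRNA of the whole tissue. In every bulk tissue, fewer cells of a type and less RNA per cell cannot be told apart.

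Where the genes were expressed was the first comparison, made between control regions. In cHet mice the serotonergic genes belonged to the periaqueductal gray. Tph2 was at 264, 280, 113 and 209 CPM in the 4 periaqueductal gray cHet libraries. In the other cHet regions it was at 0.739 to 2.45 CPM in substantia nigra, 0.950 to 1.92 CPM in caudate putamen and 0.0531 to 0.405 CPM in hypothalamus. The periaqueductal gray libraries all lay far above the rest. Set against the mean of the other 3 regions, Tph2 was higher in periaqueductal gray by a log2 fold change of 7.90 (SE 0.33, adjusted p = 2.02e-20, edgeR quasi-likelihood F test). In these contrasts the mean is taken over log2 levels, so a region with few tags pulls it far down. Chat, Slc5a7 and Slc18a3, each with a higher mean in caudate putamen, also passed this contrast as higher, where 23.7% of the 16042 genes tested did. Slc6a4 and Fev entered the fit through the periaqueductal gray libraries, so that their call there was fixed by the filter on low counts and is not counted.

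Slc6a4 was at 259, 271, 125 and 182 CPM in periaqueductal gray cHet libraries, and at 6, 6, 1 and 0 tags in hypothalamus, 0, 0, 0 and 2 tags in caudate putamen and 7, 8, 25 and 4 tags in substantia nigra. Pooled over the cHet libraries, the periaqueductal gray held 398-fold more Slc6a4 than substantia nigra (95% counting interval 296 to 548) and 1235-fold more than hypothalamus (722 to 2321). These intervals and the limits that follow cover counting error only. In hypothalamus and caudate putamen Slc6a4 mRNA was thus near the counting limit.

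Fev was at 3.36, 3.26, 2.43 and 1.74 CPM in periaqueductal gray cHet libraries. No Fev tag was counted in the 4 cHet libraries of hypothalamus or in the 8 libraries of caudate putamen. Taking 3 tags over the group as the most that a count of 0 allows, the periaqueductal gray held at least 67.9-fold more than hypothalamus and at least 74.6-fold more than caudate putamen.

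The cholinergic genes had their highest cHet means in caudate putamen. Chat was at 35.5, 37.3, 34.9 and 37.0 CPM in caudate putamen cHet libraries, and at 7.07 to 14.3 CPM in periaqueductal gray, 3.42 to 9.87 CPM in hypothalamus and 0.416 to 0.814 CPM in substantia nigra. No other region reached the range of caudate putamen. The difference from the mean of the other regions, taken over log2 levels, was 3.33 (SE 0.22, adjusted p = 6.72e-16). Slc18a3 differed by 3.27 (SE 0.27, adjusted p = 4.76e-13) and Slc5a7 by 1.97 (SE 0.14, adjusted p = 1.61e-14). The value of Slc18a3 leans on substantia nigra, with 5 tags in cHet (mean 0.0691 CPM). Its cHet means were 8.62 CPM in caudate putamen, 6.09 CPM in periaqueductal gray and 1.96 CPM in hypothalamus. In this contrast 31% of all genes passed as higher. Slc6a4 passed as lower, but it entered the fit through the periaqueductal gray libraries, so that call is not counted.

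The order of the other regions was shared by the 3 cholinergic genes, with periaqueductal gray next, then hypothalamus, and substantia nigra last. Between periaqueductal gray and hypothalamus the ranges of Chat overlapped and those of Slc5a7 and Slc18a3 did not. In pooled cHet libraries, caudate putamen exceeded periaqueductal gray 3.43-fold for Chat (counting interval 3.17 to 3.71), 1.62-fold for Slc5a7 (1.53 to 1.71) and 1.42-fold for Slc18a3 (1.26 to 1.61). For Slc18a3 the cHet libraries of caudate putamen (7.22 to 9.60 CPM) and periaqueductal gray (5.06 to 7.90 CPM) overlapped. For Chat and Slc5a7 they did not. No test was run between these regions alone. Substantia nigra was lower than the mean of the other regions by 4.30 on the log2 scale for Chat (log2 fold change -4.30, SE 0.36, adjusted p = 9.08e-13), and the differences were -2.68 for Slc5a7 (SE 0.20, adjusted p = 3.05e-14) and -6.13 for Slc18a3 (SE 0.50, adjusted p = 4.49e-13), in a contrast where 32.7% of genes passed as lower. Hypothalamus did not pass for Chat (0.06, adjusted p = 0.870), Slc5a7 (-0.27, 0.177) or Slc18a3 (0.33, 0.451), and Tph2 was lower there (-5.02, SE 0.79, adjusted p = 2.04e-06), the only one of the 6 to pass in a contrast where 23.1% of genes passed as lower.

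**Figure D1:**
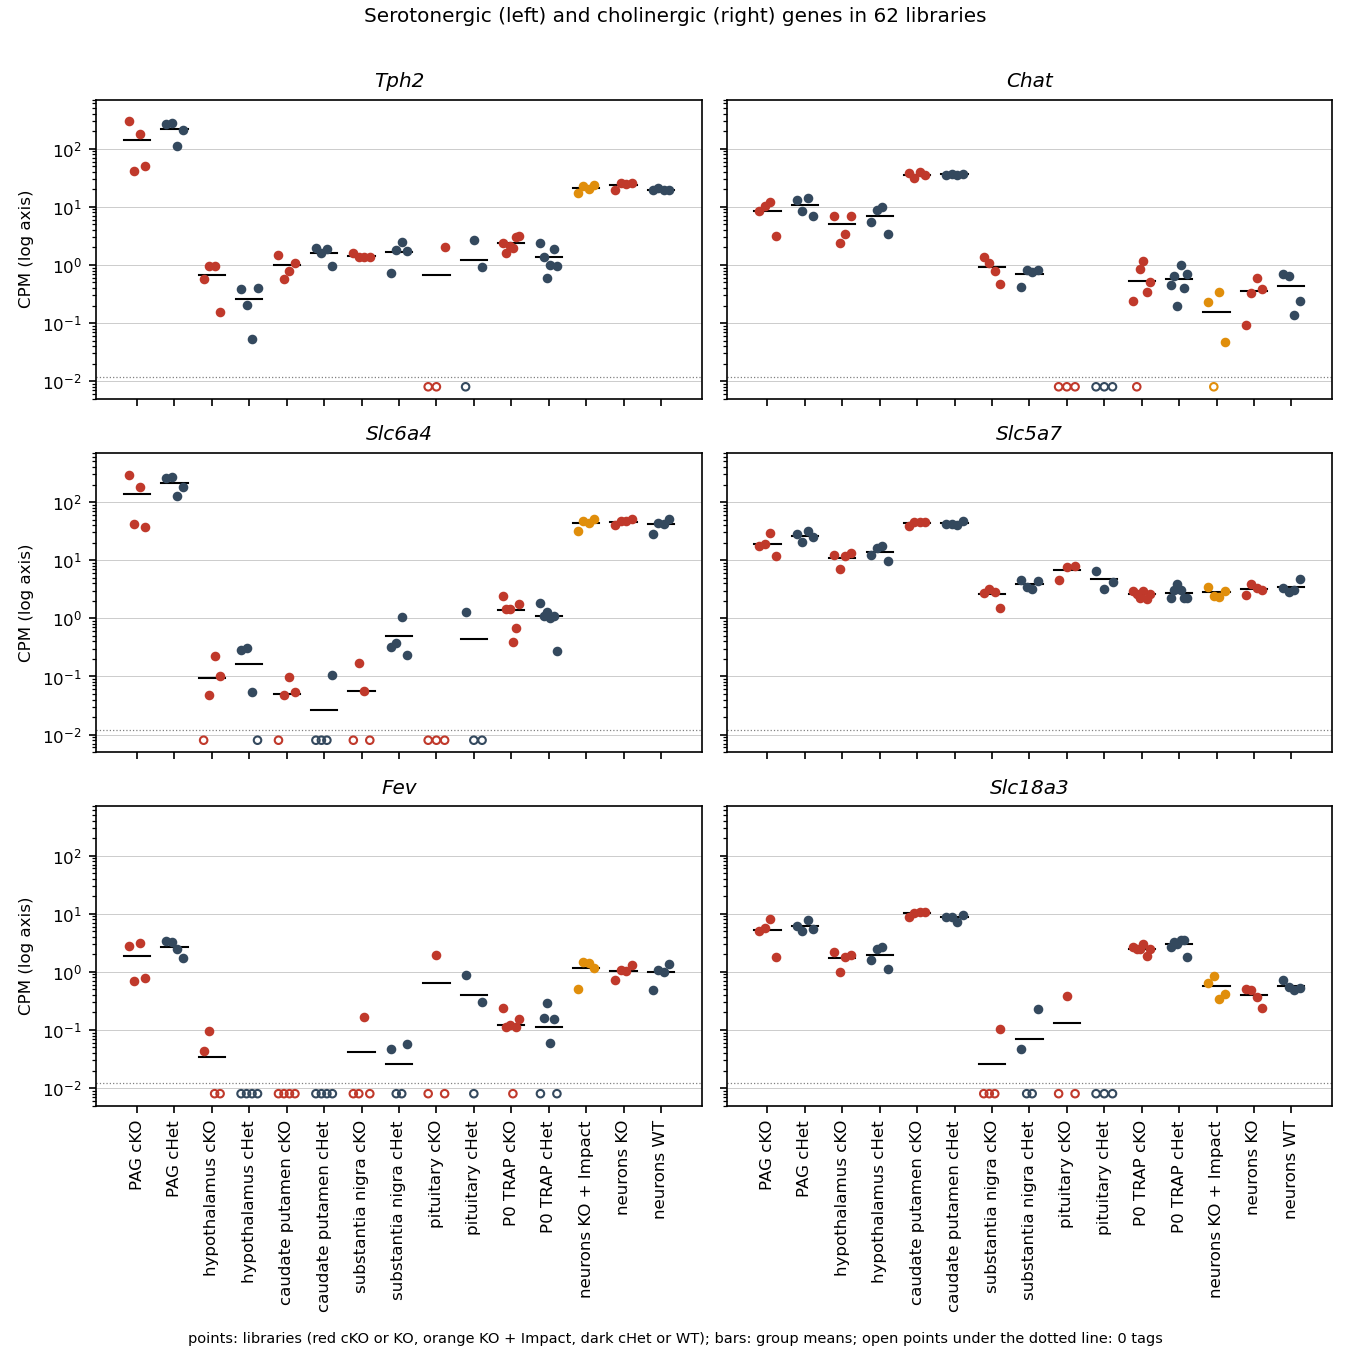
CPM on a log axis for the 6 genes in all 62 libraries, one panel per gene, with groups along the x axis (PAG, periaqueductal gray). Points are libraries, bars are group means, and open points under the dotted line are libraries with 0 tags. Tph2 and Slc6a4 stand highest in periaqueductal gray and then in cultured neurons, and Chat and Slc5a7 in caudate putamen.

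The plot of CPM by library shows the full order. For Tph2 the groups ran from periaqueductal gray cKO and cHet, through the 3 groups of cultured neurons, to TRAP and the other tissues. Periaqueductal gray cKO (42.0 to 294 CPM) did not overlap neurons KO (19.1 to 25.6 CPM), and neurons WT (19.2 to 20.7 CPM) did not overlap TRAP cKO (1.58 to 3.16 CPM). All other neighbours in the Tph2 order overlapped.

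Slc6a4 had the same top 5 groups. It was at 43.4 ± 8.19 CPM in neurons KO + Impact, 46.3 ± 4.88 CPM in neurons KO and 41.2 ± 9.14 CPM in neurons WT (SD, n = 4 each), and its next group, TRAP cKO, stood at 0.389 to 2.42 CPM, a gap without overlap. Fev was at 1.14 CPM in neurons KO + Impact, 1.04 CPM in neurons KO and 0.978 CPM in neurons WT on average, and these ranges overlapped that of periaqueductal gray cKO. Cultures of embryonic ventral midbrain and diencephalon thus held transcripts of all 3 serotonergic genes.

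The cholinergic genes followed another order. Chat in caudate putamen cKO (31.2 to 38.9 CPM) did not overlap periaqueductal gray cHet (7.07 to 14.3 CPM), and hypothalamus cKO (2.34 to 7.04 CPM) did not overlap substantia nigra cKO (0.464 to 1.37 CPM). Chat was at 0 tags in all 6 pituitary libraries, where 3 tags over the group would be 0.357 CPM in cKO and 0.404 CPM in cHet. Pituitary nevertheless held Slc5a7, at 4.55, 7.76 and 7.90 CPM in cKO libraries, against 6.55, 3.24 and 4.27 CPM in cHet libraries.

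Slc5a7 and Slc18a3 were also seen outside the P21 brain regions. Slc5a7 was at 2.13 to 2.98 CPM (median 2.63) in the 6 TRAP cKO libraries, against 2.22 to 3.82 CPM (median 2.66) in the 6 cHet libraries. Slc18a3 was at 1.90 to 2.98 CPM (median 2.49) in TRAP cKO, against 1.80 to 3.53 CPM (median 3.16) in TRAP cHet. In this order TRAP stood above hypothalamus for Slc18a3, with overlapping ranges, while for Slc5a7 TRAP was among the lowest groups.

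Over the means of the 15 groups, on the log2 CPM scale, the non-member genes closest to Tph2 among 16045 genes were Pou4f3 (r = 0.985), Pou4f2 (r = 0.968) and Gchfr (r = 0.936). Those closest to Slc6a4 were Pou4f2 (r = 0.972), Pou4f3 (r = 0.967) and Pou4f1 (r = 0.947), and those closest to Fev were Gchfr (r = 0.943), Pou4f3 (r = 0.915) and Pou4f1 (r = 0.895). Pou4f1, Pou4f2 and Pou4f3 encode POU-domain transcription factors, and Gchfr a regulator of the first enzyme of biopterin synthesis. For Chat they were Kcnab1 (r = 0.982), Tmem191c (r = 0.972) and Ttll11 (r = 0.967), for Slc5a7 Kcnab1 (r = 0.940), St3gal5 (r = 0.936) and Cx3cl1 (r = 0.935), and for Slc18a3 6330527O06Rik (r = 0.959), Camk1d (r = 0.945) and Tac1 (r = 0.928). Among the members, Tph2 and Slc6a4 had r = 0.973 and Chat and Slc5a7 had r = 0.926. The points share tissues, so these values describe 15 groups.

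The effect of Nova1 loss on the serotonergic genes was read in periaqueductal gray, where they were abundant. None of the 3 passed the test there, and what the values show is a wide spread among the cKO libraries. Tph2 was at 294, 42.0, 177 and 49.7 CPM in cKO libraries 1 to 4, against 264, 280, 113 and 209 CPM in cHet libraries 1 to 4. Libraries cKO 2 and 4 lay below every cHet library, while cKO 1 lay above all of them. The means were 141 ± 119 CPM in cKO and 216 ± 75.6 CPM in cHet (SD, n = 4 each; log2 fold change -0.62, SE 0.42, 95% interval -1.51 to 0.27, adjusted p = 0.387). Without cKO 1 the change was -1.27 (adjusted p = 0.0409), a call that rests on leaving out 1 library. Over the 14 alternatives run it was -1.27 to -0.32 (adjusted p 0.0409 to 0.685). In this comparison 9.73% of the 14980 genes tested passed in either direction, and 0 of the 6 genes.

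Slc6a4 repeated the pattern, at 294, 42.4, 184 and 36.8 CPM in cKO, against 259, 271, 125 and 182 CPM in cHet (-0.59, SE 0.44, 95% interval -1.51 to 0.34, adjusted p = 0.442). Fev was at 2.79, 0.702, 3.12 and 0.771 CPM in cKO, against 3.36, 3.26, 2.43 and 1.74 CPM in cHet (-0.53, SE 0.39, adjusted p = 0.427). For both genes cKO 2 and 4 were the lowest of the 8 libraries and the groups overlapped through cKO 1 and 3.

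Of 17 further serotonin pathway genes tested in this tissue, 8 also had cKO 2 and 4 as the lowest of the 8 libraries, and 9 did not. Over all 14980 genes tested the share with that order was 3.22%, and the order was read after the values were seen. Among the 8 were Ddc, Slc18a2 and Lmx1b. Ddc, which turns 5-hydroxytryptophan into serotonin and also serves dopamine synthesis, was at 243, 73.6, 158 and 83.9 CPM in cKO, against 192, 199, 107 and 159 CPM in cHet (-0.23, adjusted p = 0.638). Slc18a2, the vesicular monoamine transporter, was at 155, 35.9, 117 and 38.1 CPM in cKO, against 119, 136, 72.7 and 96.0 CPM in cHet (-0.29, adjusted p = 0.640). Lmx1b, a transcription factor of serotonergic neurons, was at 3.04, 0.643, 2.13 and 0.551 CPM in cKO, against 2.96, 2.62, 1.56 and 1.79 CPM in cHet (-0.47, adjusted p = 0.522). In these 3 genes library 3 was the lowest of cHet.

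Across the 14980 genes, the 3 non-member genes whose deviations from the genotype means over the 8 libraries were most like those of Tph2 were Ddc (r = 0.994), Slc18a2 (r = 0.991) and Esr2 (r = 0.989). For Slc6a4 they were Slc18a2 (r = 0.995), Lmx1b (r = 0.991) and Slc17a8 (r = 0.984), and for Fev they were H2-DMb1 (r = 0.992), Scn9a (r = 0.985) and D7Ertd443e (r = 0.974). Tph2 and Slc6a4 had r = 0.987 with each other, while Tph2 and Chat had r = 0.257. These are descriptions over 8 points that share tissue and dissection.

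Other genes did not all follow that split. Htr1a, a serotonin receptor that is also an autoreceptor on raphe neurons, was at 20.6 ± 1.97 CPM in cKO and 21.8 ± 2.41 CPM in cHet (SD, n = 4 each). Th, the rate-setting enzyme of dopamine synthesis, was at 33.9, 29.9, 27.2 and 27.0 CPM in cKO, against 30.1, 38.6, 23.6 and 20.4 CPM in cHet. The 8 dopaminergic markers, which include Ddc and Slc18a2, summed to 588, 277, 428 and 289 CPM in cKO, against 492, 554, 362 and 431 CPM in cHet, with cKO 2 and 4 the lowest. Without Ddc and Slc18a2 the sum was 189, 167, 153 and 167 CPM in cKO, against 182, 219, 182 and 175 CPM in cHet, and cKO 3 was the lowest. Summed over the 4 GABAergic markers, levels were 1772 to 2167 CPM in cKO and 1568 to 1854 CPM in cHet. Summed over the 6 endothelial markers they were 60.5 to 85.2 CPM in cKO and 88.1 to 107 CPM in cHet, with no overlap. The part of these other cells in the serotonergic values was not tested.

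**Figure D2:**
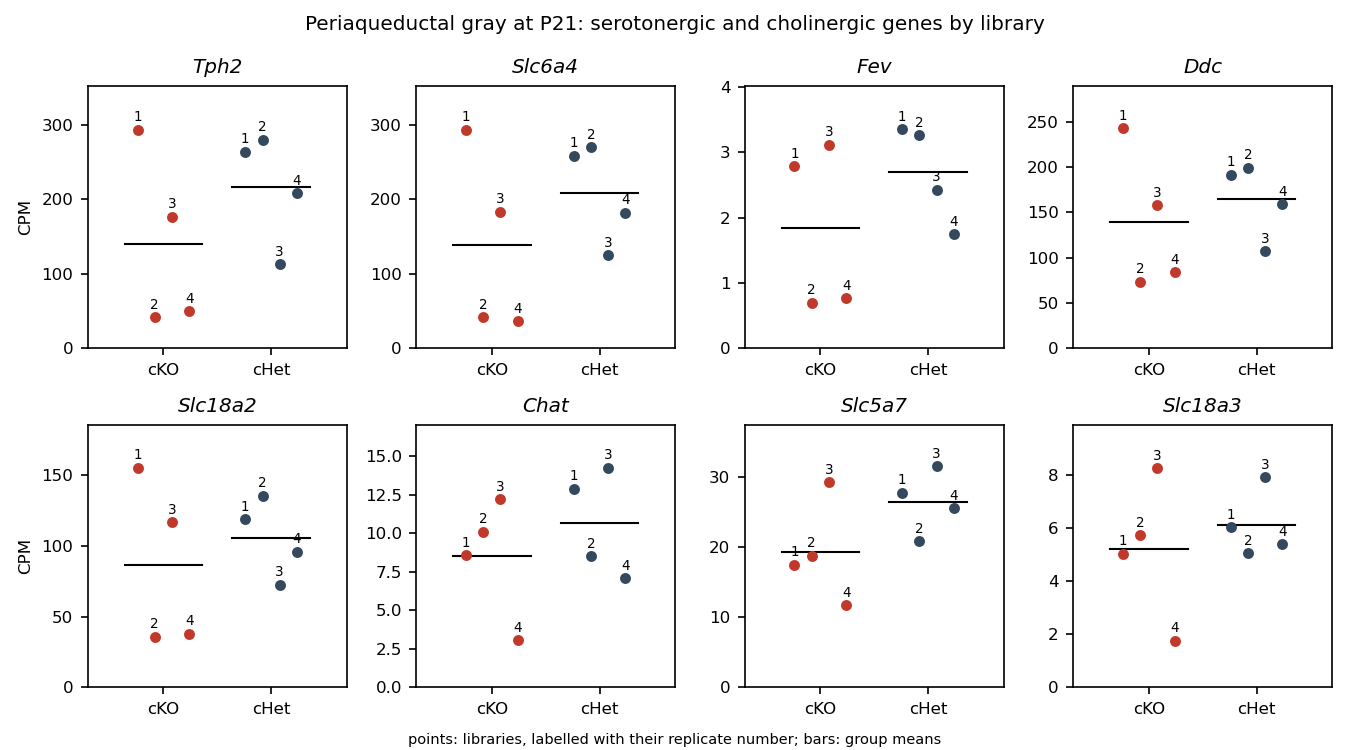
CPM in the 4 cKO and 4 cHet libraries of periaqueductal gray for the 6 genes and for Ddc and Slc18a2, one panel per gene, each axis from 0. Points are libraries with their replicate number and bars are group means. In the panels of Tph2, Slc6a4, Fev, Ddc and Slc18a2, cKO 2 and 4 are the lowest of the 8 libraries, and in those of Chat, Slc5a7 and Slc18a3 cKO 4 alone is.

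Away from the raphe the serotonergic counts were low. In substantia nigra Slc6a4 had 0, 3, 1 and 0 tags in cKO libraries, against 7, 8, 25 and 4 tags in cHet libraries, so that every cKO library lay below every cHet library. The gene did not pass the filter on low counts and was not tested in the main analysis. With no filter it was called (-3.07, SE 0.85, adjusted p = 0.0300), with 25 of the 44 cHet tags in cHet 3. The share of all genes called with no filter is not reported here. Among the 14858 genes that passed the filter, a set without Slc6a4, 8.31% were lower in cKO with no overlap. That share does not describe genes with so few tags. Tph2 in the same libraries was at 1.60, 1.34, 1.34 and 1.39 CPM in cKO, against 0.739, 1.77, 2.45 and 1.73 CPM in cHet (-0.24, SE 0.32, adjusted p = 0.694), with overlapping groups. In substantia nigra 9.81% of 14858 genes passed, and 0 of the 3 members tested.

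In caudate putamen Tph2 was at 1.49, 0.567, 0.797 and 1.07 CPM in cKO, against 1.92, 1.57, 1.88 and 0.950 CPM in cHet (-0.70, SE 0.33, adjusted p = 0.183). The groups overlapped, and without the library whose labels conflict the change was -0.97 (adjusted p = 0.102). In hypothalamus Tph2 had 13, 20, 17 and 3 tags in cKO, against 8, 4, 1 and 7 tags in cHet, too few for the main analysis. The ranges overlapped through cKO 4, and without that library Tph2 was tested and passed (1.63, SE 0.51, adjusted p = 0.0419). It then entered the test through the other cKO libraries, where it was higher, so the filter on low counts favoured this call and it is not counted. Of the 15017 genes tested in caudate putamen 10.4% passed, and 0 of 4 members. Of the 15207 tested in hypothalamus 12% passed, and 0 of 3.

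At P0 the inhibitory-neuron TRAP libraries held Tph2 at 1.58 to 3.16 CPM (median 2.25) in cKO, against 0.588 to 2.41 CPM (median 1.18) in cHet. The ranges overlapped (0.73, SE 0.28, adjusted p = 0.623). Slc6a4 was at 0.389 to 2.42 CPM (median 1.47) in cKO, against 0.278 to 1.83 CPM (median 1.11) in cHet (0.25, SE 0.34, adjusted p = 0.904). Neither passed, in a comparison where 0.0307% of 13009 genes did.

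In cultured neurons none of the serotonergic genes passed in the main analysis. Tph2 was at 17.0, 22.4, 19.9 and 23.8 CPM in KO + Impact, 19.1, 25.5, 24.3 and 25.6 CPM in KO, and 19.4, 20.7, 19.2 and 19.3 CPM in WT. Libraries KO 2, 3 and 4 lay above all WT libraries and KO 1 lay below them. KO against WT gave 0.26 (SE 0.11, adjusted p = 0.327). The replicate numbers pair the cultures, and with the number as a block Tph2 passed (0.26, SE 0.075, adjusted p = 0.0430). In the main analysis 0.722% of 14829 genes passed (107 genes), and 0 of 5 members tested. Under the block, where Tph2 passed, 942 genes did.

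KO + Impact against KO gave -0.18 for Tph2 and -0.09 for Slc6a4, and neither passed, where 0.00674% of genes did. KO + Impact against WT gave 0.08 for Tph2 (adjusted p = 0.942) and 0.08 for Slc6a4 (adjusted p = 0.961), where 0.378% of genes passed. Slc6a4 was at 32.1, 47.5, 43.0 and 50.9 CPM in KO + Impact, 40.1, 46.6, 46.5 and 52.0 CPM in KO, and 28.5, 43.6, 42.2 and 50.3 CPM in WT. Library 1 was the lowest of each group. KO against WT gave 0.17 (SE 0.15, adjusted p = 0.746).

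Fev in neurons was at 0.497, 1.48, 1.43 and 1.16 CPM in KO + Impact, 0.733, 1.09, 1.05 and 1.29 CPM in KO, and 0.489, 1.06, 0.998 and 1.37 CPM in WT. Library 1 was again the lowest of each group, and KO against WT gave 0.10 (SE 0.36, adjusted p = 0.956).

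Among the cholinergic genes, the choline transporter Slc5a7 was the only one to pass a genotype test. It was called in the average over the 4 brain regions and in no region alone. In hypothalamus it was at 12.1, 6.92, 11.7 and 13.1 CPM in cKO, against 12.1, 16.3, 17.9 and 9.61 CPM in cHet (-0.35, SE 0.18, adjusted p = 0.222). In periaqueductal gray it was at 17.5, 18.8, 29.3 and 11.7 CPM in cKO, against 27.7, 20.9, 31.5 and 25.5 CPM in cHet (-0.45, SE 0.19, adjusted p = 0.143). In both regions the mean was lower in cKO and the ranges overlapped.

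In substantia nigra Slc5a7 was at 2.74, 3.24, 2.86 and 1.50 CPM in cKO, against 4.62, 3.45, 3.17 and 4.37 CPM in cHet (-0.59, SE 0.24, adjusted p = 0.134). Only the highest cKO library exceeded the lowest cHet library. In caudate putamen, where the gene is most abundant, it was at 38.5, 45.2, 45.8 and 45.7 CPM in cKO, against 41.8, 41.1, 41.0 and 47.3 CPM in cHet (0.03, SE 0.08, adjusted p = 0.827).

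Averaged over the 4 regions, Slc5a7 fell by 0.34 on the log2 scale in cKO (log2 fold change -0.34, SE 0.11, 95% interval -0.56 to -0.13, adjusted p = 0.0108). In the same average 39% of the 16042 genes tested passed, 19.6% as lower, so that 1 call among the 6 genes is no more than the share of all genes. The call held in each of the 38 alternatives run, at -0.41 to -0.30 (adjusted p 0.000981 to 0.0464), and without the library whose labels conflict it was -0.33 (adjusted p = 0.0171). A difference of the effect between regions was not detected (interaction adjusted p = 0.761), where 0.318% of genes passed that test. The labels do not say whether regions came from the same mice. Between regions of the same genotype, deviations from the group means had r over 0.1 in 19 of 48 pairs with the same replicate number (median 0.09) and in 1 of 144 pairs with different numbers (median -0.03). With genotype and number taken as the animal and fitted as a random block in limma, an alternative chosen after seeing the data, Slc5a7 gave -0.37 (SE 0.14, adjusted p = 0.0464).

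Some marker lists moved in the same direction beside this call, and others did not. Summed endothelial markers were at 66.1 to 85.2 CPM in cKO hypothalamus against 92.9 to 102 CPM in cHet, and at 84.1 to 99.8 CPM in cKO substantia nigra against 107 to 138 CPM in cHet. All 6 endothelial markers, 3 of 6 oligodendrocyte markers and all 4 erythroid markers tested fell in the average. Summed erythroid markers were at 54.7 to 73.0 CPM in cKO hypothalamus against 76.7 to 101 CPM in cHet, and at 63.1 to 82.8 CPM in cKO periaqueductal gray against 77.8 to 126 CPM in cHet. In caudate putamen, where Slc5a7 was not lower, mean endothelial sums were 97.3 CPM in cKO against 121 CPM in cHet. Mean erythroid sums there were 71.6 against 95.2 CPM. Summed GABAergic markers had higher means in cKO hypothalamus (1750 against 1614 CPM), periaqueductal gray (1966 against 1702), caudate putamen (2173 against 2042) and substantia nigra (2545 against 2340). The part of these cell types in the Slc5a7 result was not tested. In periaqueductal gray Slc5a7 alone passed under a replicate block (-0.50, adjusted p = 0.0204) and without cKO 3 (-0.72, adjusted p = 0.0105). The replicate numbers of that tissue missed the rule for pairing, r over 0.1. Pairs of libraries with the same number had r of 0.021 to 0.091 (median 0.082). Pairs with different numbers had a median of -0.017 and at most 0.040.

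**Figure D3:**
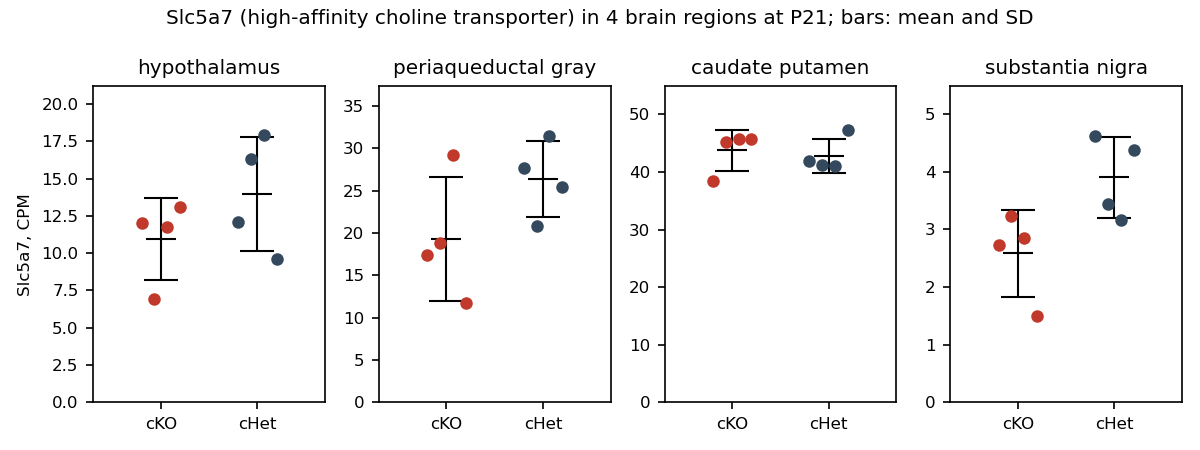
CPM of Slc5a7 in cKO and cHet libraries of 4 brain regions, one panel per region, each with its own axis from 0 and 4 points per genotype. Bars show the mean and SD. The cKO mean is lower in hypothalamus, periaqueductal gray and substantia nigra, at 11.0, 19.3 and 2.58 CPM against 14.0, 26.4 and 3.90 CPM in cHet and it is 43.8 CPM against 42.8 CPM in caudate putamen.

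Chat passed in none of the genotype comparisons in which it was tested. In pituitary, TRAP and cultured neurons it did not pass the filter on low counts and was not tested. In caudate putamen it was at 37.6, 31.2, 38.9 and 34.7 CPM in cKO, against 35.5, 37.3, 34.9 and 37.0 CPM in cHet (-0.02, SE 0.08, adjusted p = 0.892). In hypothalamus it was at 7.04, 2.34, 3.44 and 7.04 CPM in cKO, against 5.55, 8.89, 9.87 and 3.42 CPM in cHet (-0.48, SE 0.31, adjusted p = 0.332). The groups overlapped in both regions, and the spread was wide in hypothalamus and narrow in caudate putamen.

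In periaqueductal gray Chat was at 8.57, 10.1, 12.2 and 3.08 CPM in cKO, against 12.9, 8.51, 14.3 and 7.07 CPM in cHet (-0.33, SE 0.29, adjusted p = 0.518). In substantia nigra it was at 1.37, 1.06, 0.784 and 0.464 CPM in cKO, against 0.416, 0.814, 0.761 and 0.806 CPM in cHet (0.39, SE 0.38, adjusted p = 0.570). The average over regions was -0.11 (adjusted p = 0.682). In cultured neurons Chat was near the counting limit, with 5, 0, 10 and 1 tags in KO + Impact, 2, 8, 16 and 8 tags in KO, and 17, 15, 4 and 5 tags in WT.

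Within caudate putamen, the deviations of Chat and Slc5a7 from the genotype means over the 8 libraries were not alike (r = -0.17), while Slc5a7 and Slc18a3 had r = 0.827. Among 15017 genes the closest to Chat were 2310047B19Rik (r = 0.978), Aldh9a1 (r = 0.951) and Susd4 (r = 0.951). The closest to Slc5a7 were Commd7 (r = 0.987), Rcan2 (r = 0.974) and Abhd8 (r = 0.972), and the closest to Slc18a3 were Rab27b (r = 0.980), Mertk (r = 0.970) and Arhgap12 (r = 0.969).

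Slc18a3 also passed in none of the genotype comparisons that could be run. In caudate putamen it was at 8.59, 10.31, 10.6 and 10.8 CPM in cKO, against 8.85, 8.82, 7.22 and 9.60 CPM in cHet (0.22, SE 0.12, adjusted p = 0.263). Libraries cKO 2, 3 and 4 lay above all cHet libraries. In periaqueductal gray it was at 5.02, 5.73, 8.25 and 1.76 CPM in cKO, against 6.02, 5.06, 7.90 and 5.37 CPM in cHet (-0.23, SE 0.29, adjusted p = 0.678), with overlap.

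In hypothalamus Slc18a3 was at 2.20, 1.00, 1.81 and 1.95 CPM in cKO, against 1.59, 2.42, 2.71 and 1.10 CPM in cHet (-0.17, SE 0.30, adjusted p = 0.755). In TRAP the change was -0.27 (SE 0.19, adjusted p = 0.769). Neurons held 0.632, 0.861, 0.340 and 0.419 CPM in KO + Impact, 0.504, 0.485, 0.376 and 0.239 CPM in KO, and 0.733, 0.549, 0.482 and 0.520 CPM in WT (KO against WT -0.50, SE 0.38, adjusted p = 0.702). In substantia nigra it was counted 0, 0, 0 and 2 times in cKO and 1, 0, 0 and 4 times in cHet, which is at the limit of detection.

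In the remaining groups Slc5a7 did not pass. In TRAP it changed by -0.10 (SE 0.19, adjusted p = 0.937), and in pituitary by 0.52 (SE 0.46, adjusted p = 0.892), where 0.00815% of 12265 genes passed. In neurons it was at 3.52, 2.46, 2.31 and 2.98 CPM in KO + Impact, 2.57, 3.88, 3.34 and 3.02 CPM in KO, and 3.30, 2.79, 3.06 and 4.78 CPM in WT (KO against WT -0.11, SE 0.20, adjusted p = 0.905). All these groups overlapped.

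**Figure D4:**
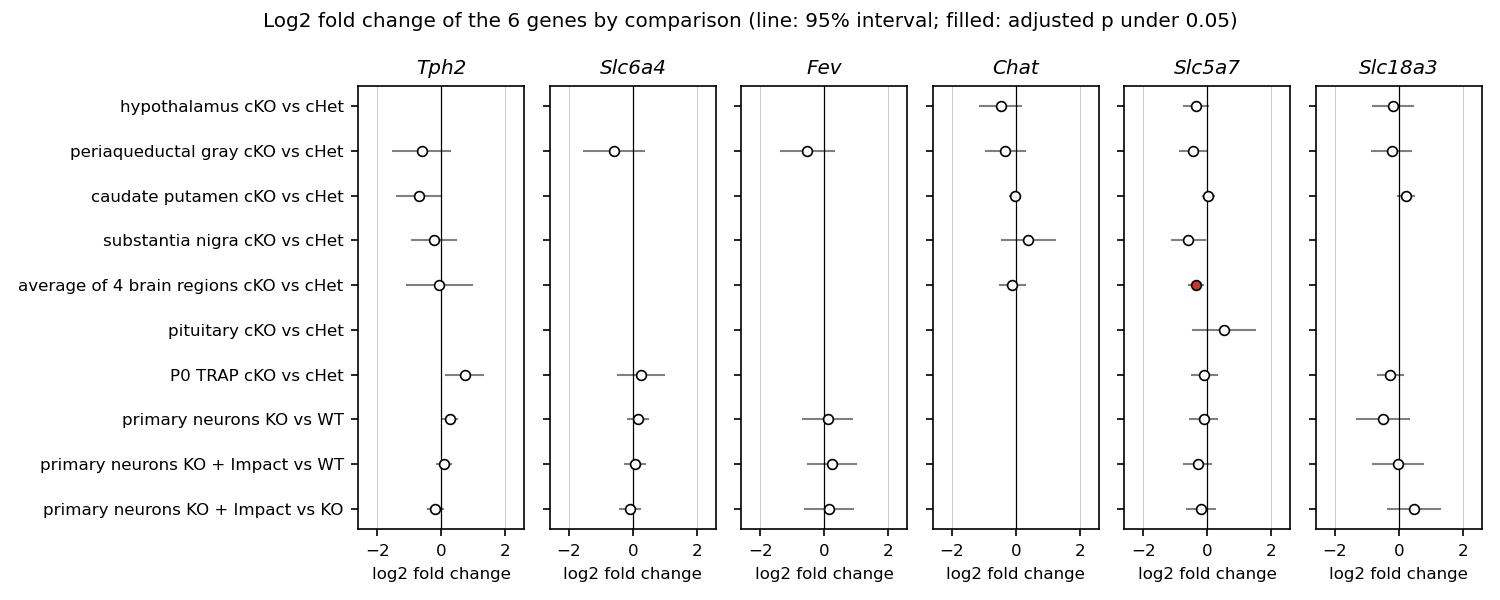
Log2 fold change of each gene (x axis) in each genotype or virus comparison (rows), with the 95% interval as a line. A filled point passed the test, and comparisons in which a gene was not tested or had too few tags are empty. The 1 filled point is Slc5a7 in the average of 4 brain regions, at -0.34.

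Per base of exon, the balance among the 3 cholinergic genes was not constant across sources. In RPKM, the ratio of Slc18a3 to Chat was 1.17 in periaqueductal gray cKO and 1.10 in cHet, and 0.542 in caudate putamen cKO and 0.456 in cHet. In TRAP it was 9.45 in cKO (95% counting interval 6.39 to 14.4) and 10.2 in cHet (7.45 to 14.2). The TRAP libraries at P0 thus held more Slc18a3 than Chat tags per length, while caudate putamen at P21 held fewer. Mean Chat levels in TRAP were only 0.519 CPM in cKO and 0.561 CPM in cHet. Summed oligodendrocyte markers were at 67.4 CPM in TRAP cKO and 66.5 CPM in TRAP cHet. Which cells the Chat and Slc18a3 tags of TRAP came from was not tested.

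In cultured neurons the ratio of Slc18a3 to Chat was 6.46 in KO + Impact (3.64 to 12.1), 2.14 in KO (1.31 to 3.51) and 2.62 in WT (1.72 to 4.01), from 16, 34 and 41 Chat tags per group. These intervals pool the tags of a group and leave out the spread between libraries. Single libraries ran from 1.20 to 10.5 in KO and from 1.66 to 6.70 in WT. In KO + Impact the libraries held 5, 0, 10 and 1 Chat tags. A difference of this ratio between the groups was not tested. The ratio of Slc5a7 to Slc18a3 was 0.457 in TRAP cKO and 0.395 in TRAP cHet, and 1.64 to 3.52 in hypothalamus, periaqueductal gray, caudate putamen and cultured neurons. TRAP differed from those sources in method, cell type and age together. The share of intronic Chat reads in Slc18a3 was not measured.

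**Figure D5:**
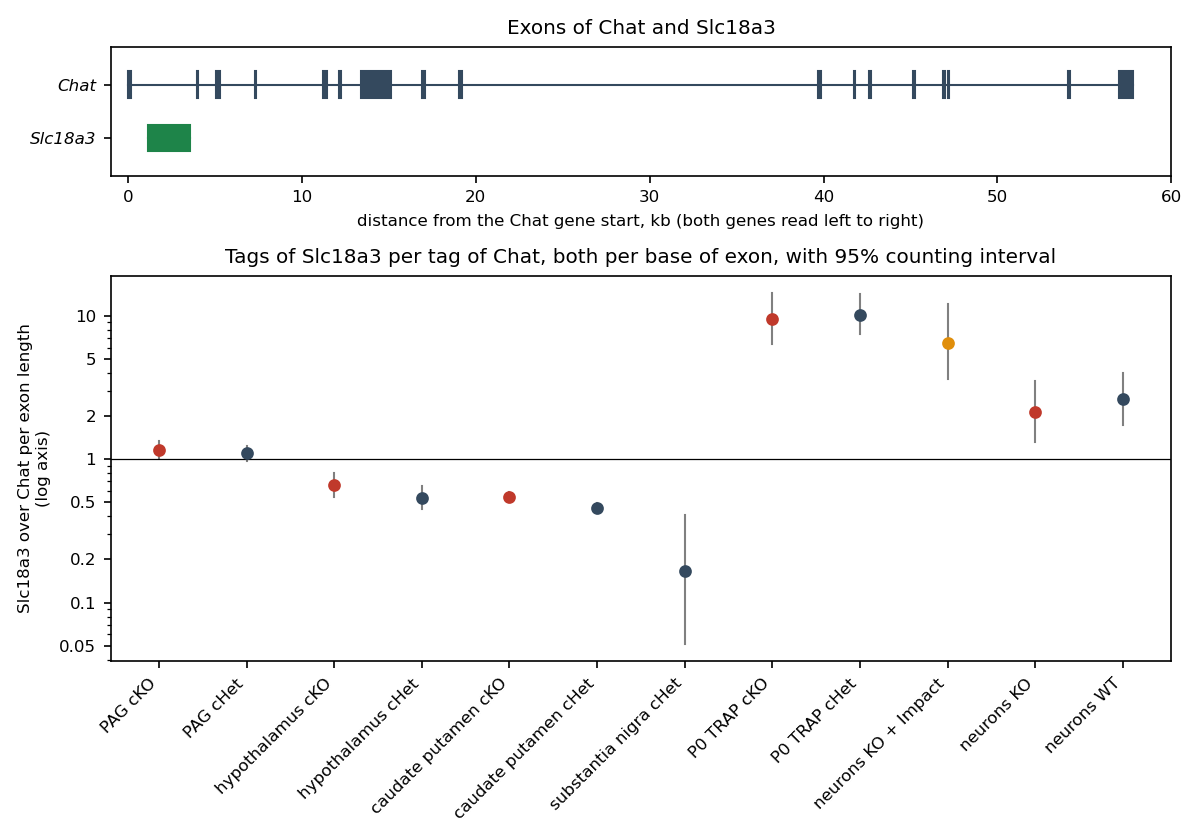
Top, exons of Chat and Slc18a3 by distance from the Chat gene start in kb, both read left to right, with Slc18a3 inside the first intron. Bottom, RPKM of Slc18a3 over that of Chat in 12 groups on a log axis with 95% counting intervals, from 0.165 in substantia nigra cHet to 9.45 and 10.2 in TRAP cKO and cHet.

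The ratio within the serotonergic pair differed between periaqueductal gray and culture. In RPKM, Tph2 over Slc6a4 was 1.06 in periaqueductal gray cKO and 1.09 in cHet. It was 0.50 in neurons KO + Impact (95% counting interval 0.474 to 0.527), 0.535 in KO and 0.503 in WT. Fev over Tph2 was 0.0224 in periaqueductal gray cKO and 0.0212 in cHet, and 0.0981, 0.0765 and 0.0854 in neurons KO + Impact, KO and WT. Where both genes were scarce, Tph2 over Slc6a4 was higher, at 26.9 in substantia nigra cKO (4 Slc6a4 tags; 10.2 to 101) and 3.35 in cHet (44 Slc6a4 tags; 2.37 to 4.82), and it was 1.82 in TRAP cKO and 1.30 in TRAP cHet. Within periaqueductal gray and within the cultures the pooled ratios of the groups lay close together, while Tph2 itself ranged over 42.0 to 294 CPM among the periaqueductal gray cKO libraries. Ratios of single libraries spread more. Tph2 over Slc6a4 ran from 1.01 to 1.41 in periaqueductal gray cKO and from 0.402 to 0.711 in neurons WT. Fev over Tph2 ran from 0.0438 to 0.123 in neurons WT.

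The rest of the serotonin pathway, 18 genes from synthesis to breakdown and transcription, held a few calls in the brain regions. Qdpr, which recycles the biopterin cofactor of Tph2 and Th, fell in all 4: to 121 ± 14.0 CPM in cKO periaqueductal gray against 174 ± 3.99 CPM in cHet (-0.52, SE 0.07, adjusted p = 0.000586). Its log2 fold change was -0.55 in substantia nigra, -0.43 in caudate putamen and -0.37 in hypothalamus. Pts, which acts in the synthesis of that cofactor, rose in periaqueductal gray (0.41, SE 0.11, adjusted p = 0.0221) and substantia nigra (0.35, SE 0.08, adjusted p = 0.0188). Gata3, a transcription factor of serotonergic and other midbrain neurons, rose in periaqueductal gray to 29.6 ± 1.92 CPM in cKO against 24.4 ± 1.54 CPM in cHet (0.28, adjusted p = 0.0467).

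By count, 2 of the 17 pathway genes tested in periaqueductal gray rose and 1 fell, where 9.73% of all genes passed in either direction, with a list median of -0.10 beside -0.00 for all genes. In hypothalamus 0 of 15 rose and 1 fell (12% of all genes passed), in caudate putamen 0 of 12 rose and 1 fell (10.4%), and in substantia nigra 1 of 16 rose and 1 fell (9.81%). None passed in the main analysis of pituitary (8 tested), TRAP (14 tested) or the 3 comparisons of cultured neurons (17 tested in each). The list was not read under the replicate block. Oligodendrocyte markers, whose cells also hold Qdpr, summed to 20492 to 25573 CPM in cKO periaqueductal gray and 22345 to 27181 CPM in cHet. Their part in the Qdpr result was not tested.

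Serotonin receptors passed in 2 regions. Htr2c rose in substantia nigra to 216 ± 12.4 CPM in cKO against 126 ± 15.6 CPM in cHet (0.77, SE 0.08, adjusted p = 0.00029), with no overlap. It also rose in caudate putamen, to 111 ± 6.34 CPM in cKO against 94.3 ± 2.89 CPM in cHet (0.24, SE 0.06, adjusted p = 0.0162). Its effect differed between regions (interaction adjusted p = 0.00636). Htr4 fell in caudate putamen to 6.42 ± 0.574 CPM in cKO against 9.83 ± 0.545 CPM in cHet (-0.61, SE 0.12, adjusted p = 0.00457). Of 14 receptor genes, 12 were tested in periaqueductal gray and in hypothalamus, and 0 passed in each. Htr1a gave -0.08 in periaqueductal gray (adjusted p = 0.698).

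Of 20 further genes of cholinergic neurons, Acly, which makes the acetyl-CoA used for acetylcholine and for lipids, fell in 3 regions: to 452 ± 20.4 CPM in cKO periaqueductal gray against 559 ± 29.9 CPM in cHet (-0.30, SE 0.06, adjusted p = 0.00315). Its log2 fold change was -0.26 in hypothalamus and -0.35 in substantia nigra. Chkb, a choline kinase, rose in hypothalamus (0.41, adjusted p = 0.0111) and substantia nigra (0.46, adjusted p = 0.0217). Ache, which breaks down acetylcholine, rose in caudate putamen to 101 ± 8.70 CPM in cKO against 84.5 ± 7.02 CPM in cHet (0.26, SE 0.07, adjusted p = 0.0324). In the regions together the counts were 1 up and 1 down of 20 tested in hypothalamus, 0 and 1 of 16 in periaqueductal gray, 1 and 0 of 20 in caudate putamen, and 2 and 1 of 14 in substantia nigra. Of all genes, 12, 9.73, 10.4 and 9.81% passed in these regions, in the same order and in either direction.

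Of the nicotinic receptor subunits, 4 passed in single regions. Chrna6 rose in periaqueductal gray to 7.37 ± 2.08 CPM in cKO against 4.70 ± 0.726 CPM in cHet (0.65, SE 0.19, adjusted p = 0.0382), and Chrna3 to 7.19 ± 3.53 CPM against 3.83 ± 1.08 CPM in cHet (0.90, SE 0.28, adjusted p = 0.0487). In caudate putamen Chrna10 rose to 1.21 ± 0.271 CPM in cKO against 0.323 ± 0.103 CPM in cHet (1.90, SE 0.35, adjusted p = 0.00388), and Chrnb4 to 0.873 ± 0.193 CPM against 0.279 ± 0.164 CPM (1.60, SE 0.42, adjusted p = 0.0246). Chrna10 and Chrnb4 were too low in cHet to pass the filter on low counts there. They entered the test through the cKO libraries, where they were higher, so the filter favoured both calls. Of the nicotinic genes tested, 2 of 9 rose in periaqueductal gray and 2 of 9 in caudate putamen (both through the filter), none fell, and 0 of 11 passed in hypothalamus and 0 of 9 in substantia nigra. Of all genes, 9.73% passed in periaqueductal gray and 10.4% in caudate putamen in either direction. The list median was 0.32 in periaqueductal gray, 0.26 in caudate putamen, -0.01 in hypothalamus and -0.03 in substantia nigra. The 5 muscarinic receptor genes were tested in each of the 4 regions and none passed. In the main analysis no receptor gene and no further pathway gene of either transmitter passed in TRAP, pituitary or cultured neurons. That analysis does not use the pairing of pituitary and neuron libraries by replicate number. These lists were not read under the replicate block, where more genes passed in both.

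In the average over the 4 regions, where 39% of genes passed, 19.4% as higher and 19.6% as lower, 2 of 17 serotonin pathway genes rose and 3 fell, and 2 of 12 serotonin receptor genes rose and 1 fell. Of the cholinergic lists, 3 of 20 pathway genes rose and 2 fell, 5 of 12 nicotinic genes rose and none fell, and 1 of 5 muscarinic genes, Chrm1, rose (0.19, adjusted p = 0.00914).

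Because periaqueductal gray tissue can carry motor nuclei, 10 motor neuron genes were read beside Chat. Of 6 tested, 1 fell, the neurofilament gene Nefh, which many large neurons express, at 175 ± 23.1 CPM in cKO against 228 ± 17.9 CPM in cHet (-0.38, adjusted p = 0.0092). Lhx8, a factor of forebrain cholinergic neurons, was at 0 tags in all 8 libraries of this tissue.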

How the data were processed

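RNA was polyA-selected and made into TruSeq libraries, per the labels' protocols. The authors' deposited tables give a tag number and an RPKM value for each gene. The deposited tag numbers of the 6 pituitary tables hold no fractions and were used as counts. The authors' deposited tag numbers of the other 56 libraries are estimated counts, since 4.56 to 18.8% of genes have a fraction there, and they were rounded. The deposited RPKM values are tags per kilobase of exon and per 1000000 tags of the table, and served for ratios between genes. The build was mm10 and edgeR was used, per the submitters' processing notes. What aligner, counting program, annotation and strand setting were applied is not given in the sources used here.

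Genes were filtered with filterByExpr (minimum count 10, minimum total 15) and scaled with TMM. The quasi-likelihood F test of edgeR 4.0.16 (R 4.3.3) was run within each tissue, over the 3 neuron groups together, and over the 32 libraries of 4 brain regions. P-values were adjusted by Benjamini-Hochberg over every gene of a comparison, and "rose", "fell" and "passed" mean an adjusted p under 0.05. SE is the log2 fold change over the square root of F. Counting intervals are exact at 95%, pool the tags of a group and leave out the spread between libraries. No fold is given where a group held 3 tags or fewer, except as a stated bound or with its counting interval. Likeness used log2 of CPM plus 0.5, and over groups it kept genes with a group mean of at least 1 CPM. The scripts were tested on simulated counts with 200 genes changed.

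The 6 genes, the pathway and marker lists and the tests were chosen with earlier results of these data known. The rule for named genes took the 6 genes everywhere, up to 4 called genes per other list and comparison, and the 3 closest genes by likeness. A called gene of the cholinergic pathway list is counted but not reported here. Replicate numbers were taken to pair libraries where every same-number pair of deviations had r over 0.1. This held for the neurons (12 of 12 pairs, r 0.167 to 0.363) and pituitary (3 of 3 pairs), and between genotypes of no other tissue. Alternatives were another size factor and test (DESeq2 1.42.0), no filter, no Rn45s, a replicate block, sex in TRAP, and leaving out each library. An animal block, with genotype and number taken as the animal, was added after seeing the data, as a random block in limma 3.58.1 for the average of regions.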

Additional observations from a re-analysis of the deposited data

Results flagged for a closer look

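Of 64 gene and group combinations with 4 to 10 libraries, 4 had a library set apart from the rest by a Dixon gap test at the 95% level, about as many as chance gives at 1 in 20. Slc5a7 in caudate putamen cKO had its lowest library at 38.5 CPM, with the nearest at 45.2 CPM; this is the library whose title and tissue tag conflict. Slc5a7 in caudate putamen cHet had its highest library at 47.3 CPM, with the nearest at 41.8 CPM. Tph2 in neurons WT had its highest library at 20.7 CPM, with the nearest at 19.4 CPM. Chat in substantia nigra cHet had its lowest library at 0.416 CPM, with the nearest at 0.761 CPM.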

How the results depend on the processing

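The number of members called was 0 in each region, pituitary, TRAP and neuron comparison, 1 in the average of 4 regions, and 6 (Slc6a4 and Fev among them through the filter), 1, 4 and 3 in the control contrasts of periaqueductal gray, hypothalamus, caudate putamen and substantia nigra. The 4 in caudate putamen include Slc6a4 as lower, which was also tested through periaqueductal gray and had 2 tags in caudate putamen cHet. The number of members called moved by more than 1.5 times in these cases. In hypothalamus it was 0 to 1 on leaving out libraries (Tph2 without cKO 4, through the filter) and in periaqueductal gray 0 to 1 (Tph2 without cKO 1, Slc5a7 without cKO 3), with 1 under a replicate block (Slc5a7). In substantia nigra it was 1 with no filter (Slc6a4), in KO against WT neurons 1 under the replicate block (Tph2), and in control hypothalamus 3 with DESeq2 and 2 with an animal block, which was chosen after seeing the data. The replicate block changed no other call of a member.

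Leaving out single libraries turned the sign of values that were never called: Slc18a3 in hypothalamus (-0.36 to 0.0223) and periaqueductal gray (-0.54 to 0.0569), Chat in caudate putamen (-0.0675 to 0.0355), Tph2 in substantia nigra (-0.49 to 0.0165), Slc5a7 in TRAP (-0.17 to 0.00265), Tph2 in the average (-0.23 to 0.00726) and Chat in control hypothalamus (-0.16 to 0.27). In neurons the same held for KO against WT of Fev (-0.12 to 0.29) and Slc5a7 (-0.22 to 0.0731), KO + Impact against KO of Slc6a4 (-0.18 to 0.0244), and KO + Impact against WT of Slc6a4 (-0.0636 to 0.20) and Slc18a3 (-0.31 to 0.17). The causes were not tested. Over all genes, 107 passed in KO against WT, 942 under the replicate block and 320 with DESeq2. In KO + Impact against WT 56 passed, 503 under the block and 156 with DESeq2, and in KO + Impact against KO 1, 27 and 8. In pituitary 1 passed, 75 with no filter, 33 under the block and 3 with DESeq2, and in TRAP 4 passed and 13 with DESeq2. In substantia nigra 1457 passed and 889 under the block, and in the region interaction 51 passed, 85 under the block, 200 with DESeq2 and 151 with an animal block. Leaving out single libraries took these counts to as few as 1060 of 1823 in hypothalamus (without cKO 1), 764 of 1458 in periaqueductal gray (without cKO 2), 826 of 1559 in caudate putamen (without cKO 2), 705 of 1457 in substantia nigra (without cKO 2), 46 of 107 in KO against WT (without WT 4), 22 of 56 in KO + Impact against WT (without WT 4), and between 26 and 77 against 51 in the interaction, so the shares over all genes move likewise. With 3 libraries per genotype and at most 3.10 megatags, pituitary gives little precision for genes under a few CPM, and Fev and Slc18a3 outside their main tissues rest on a handful of tags.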
